A study of Homo sapiens with 45 samples.

Results

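The regions bound by MBD2 and by MBD3 were compared in HEK293T cells, a human embryonic kidney line, after 72 h in DMSO, the solvent control. Regions came from the deposited ChIP-seq peak lists of the 2 proteins, and those with at least 1 bp in common with a region of the other list are called shared. The 2 lists hold 26128 regions, 15991 for MBD2 and 10137 for MBD3. The whole series holds 53743 regions in 12 lists for CTCF, MBD2, MBD3 and TET1. Its 3 treatments were DMSO, BPK25 and IAA, each for 72 h. The MBD2 and MBD3 lists in DMSO rest on 6 of the 45 libraries of the series, 3 for each antibody. A further 3 libraries hold input DNA of DMSO cells. The labels name no transgene or deletion in the cells of these groups, although the culture conditions given also cover edited derivatives of the line. The sources used here do not say whether the replicates were separate cultures.

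MBD2 and MBD3 are alternative subunits of NuRD, a complex that joins a nucleosome remodelling ATPase with histone deacetylases, and a single complex carries one or the other. MBD2 binds methylated CpG dinucleotides, whereas mammalian MBD3 has lost high-affinity binding to them. CTCF, a zinc finger protein of insulators and chromatin loop anchors, and TET1, an enzyme that oxidises 5-methylcytosine, were profiled in the same cells, and their DMSO lists give further measures at MBD2 and MBD3 regions that the sharing rule did not use. The title of the series names NuRD and CTCF sites, so the comparison asks how far the MBD2 and MBD3 forms were found at the same places. DNA sequence, genes and CpG content at the regions were not analysed here.

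The authors called each list on replicates 1 to 3 together, so every value comes from 1 pooled list per antibody, without an error between replicates and without a test between antibodies. Intervals are 95% intervals over regions, of the Wilson kind for shares and from order statistics for medians, and cover counting over regions only. Library depth is unknown. The whole number of fragments stacked at a summit, its pileup, and the local background behind it were recovered from the fold and −log10 p of 15973 MBD2 regions (99.9%) and 10111 MBD3 regions (99.7%). The smallest local background, which moves with depth, was 3.77 fragments for MBD2 and 4.72 for MBD3, so the MBD3 list had 1.25 times the background. The lists may share their controls, since the labels name 1 set of DMSO inputs. At shared regions the local backgrounds of the 2 lists had a median ratio of 1.25 as well, and a Spearman correlation of 0.977 across 7648 pairs. The ratio was not constant. It ran from 1.10 to 1.40 between its 5% and 95% quantiles, and 24.8% of pairs lay within 1% of the median. Whether the controls were shared was not tested.

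MBD2 had the longer list. There were 1.58 times as many MBD2 as MBD3 regions, which covered 4.44 Mb against 2.66 Mb. The median MBD2 region was 253 bp wide, with a range from 198 to 2504 bp, and the median MBD3 region was 235 bp wide, with a range from 192 to 2884 bp. The fold enrichment of a region, the authors' ratio of pileup to local background at the summit, had a median of 4.54 for MBD2 and 3.84 for MBD3. The median recovered pileup was 36 fragments at MBD2 regions and 38 at MBD3 regions. The lowest pileup listed was 13 fragments for MBD2 and 15 for MBD3.

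Most MBD3 regions were also MBD2 regions, and about as many MBD2 regions were without MBD3 as with it. Of the MBD3 regions, 7682 (75.8%, interval 74.9% to 76.6%) overlapped an MBD2 region and 2455 (24.2%) did not. Of the MBD2 regions, 7673 (48.0%, interval 47.2% to 48.8%) overlapped an MBD3 region and 8318 (52.0%) did not. The shared regions made 7691 overlapping pairs, and 18 MBD2 regions met 2 MBD3 regions while 9 MBD3 regions met 2 MBD2 regions. With the MBD2 list shortened to the length of the MBD3 list by highest −log10 q, 60.1% of each list was shared; since overlap is nearly one to one, lists of equal length give equal shares by construction. With a fold of 5 or more required in both lists, the MBD2 share was 25.9% and the MBD3 share 84.8%, since fewer MBD3 than MBD2 regions reached that fold.

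Few regions lay near the boundary of the sharing rule. The smallest overlap of a pair was 14 bp, 4 pairs overlapped by less than 50 bp, and in 27 of 7691 pairs the overlap was under 50% of the shorter region. On the other side, the smallest gap from a single-antibody region to the other list was 4 bp, and 9 MBD2-only and 7 MBD3-only regions lay within 100 bp of a region of the other protein. Within 10 kb of a region of the other protein lay 14.2% of MBD2-only and 21.8% of MBD3-only regions. The median gap was 70.4 kb from an MBD2-only region to the nearest MBD3 region and 44.9 kb from an MBD3-only region to the nearest MBD2 region. Within 1 kb there were 173 MBD2-only regions (2.08%) and 107 MBD3-only regions (4.36%). Such gaps depend on the length of the other list, and they were not compared with random positions.

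Sharing was higher among the stronger regions of each list. In fold quartiles from weak to strong, 29.8%, 38.4%, 51.1% and 72.7% of MBD2 regions were shared with MBD3. The corresponding shares of MBD3 regions were 55.3%, 72.8%, 83.3% and 91.7%. The same order held for pileup among regions whose local background did not exceed 3 times the smallest of their list, called low background here. Of MBD2 regions with 13 to 29 fragments 24.8% were shared, against 60.3% of those with 40 to 49 fragments and 97.8% (132 of 135) of those with 80 to 119. For MBD3 the shares in the same bins were 48.4%, 88.1% and 100% (93 of 93, interval from 96.0%). Low-background regions of either protein with 80 to 119 fragments were thus nearly all listed for both. By fold the share was lower. In the highest fold quartile, 71.4% of low-background MBD2 regions and 91.2% of low-background MBD3 regions were shared. More single-antibody regions lay in the lower fold quartiles than in the higher ones, and strength bears on whether a region is listed at all.

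**Figure D1:**
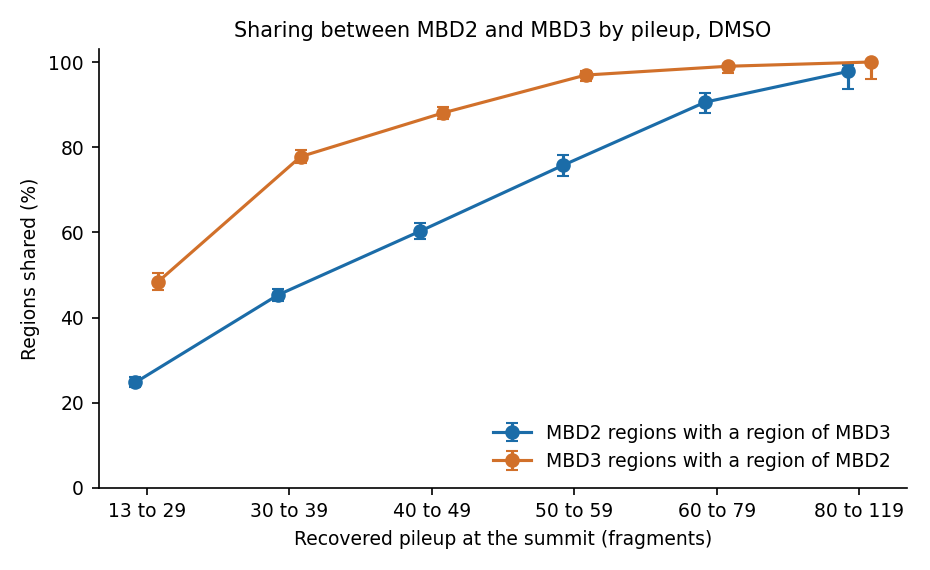
Share of MBD2 and MBD3 regions (%) that overlap a region of the other protein, by recovered pileup at the summit in fragments, for low-background regions in DMSO; bars are 95% Wilson intervals. Both curves climb with pileup, from 24.8% to 97.8% for MBD2 and from 48.4% to 100% for MBD3.

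A ranking by −log10 q gave another picture for the very top of the MBD3 list. All 100 MBD2 regions of highest −log10 q were shared, and the share fell to 94.9% in the first 1000 and 74.5% in the first 5000. Of the 100 MBD3 regions of highest −log10 q, 90 were shared, against 95.7% of the first 1000 and 90.3% of the first 5000. The 10 exceptions all had a local background above 3 times the smallest or one that was not recovered, as had 75 of these 100 MBD3 regions and 66 of the 100 MBD2 regions. Their median fold was 1.97, and 2 of them lay off chromosomes 1 to 22 and X.

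Single-antibody regions were weaker, narrower and less often split into several summits than shared ones. The median fold was 5.04 at shared MBD2 regions and 4.15 at MBD2-only regions, and it was 4.06 at shared MBD3 regions and 3.24 at MBD3-only regions. The median pileup was 42 against 31 fragments for MBD2 and 41 against 29 for MBD3. Strength bears on whether a region is listed at all, so these differences are not independent of the sharing rule and are given as a description. More than 1 summit was listed in 3.32% of shared and 1.01% of MBD2-only regions, and in 3.09% of shared and 1.91% of MBD3-only regions.

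Shared MBD2 regions had a median width of 272 bp (270 to 274) and MBD2-only regions one of 239 bp (238 to 240). For MBD3 the medians were 239 bp (238 to 240) for shared and 223 bp (221 to 225) for MBD3-only regions. The difference was present within each quartile of fold, although wide regions also have a better chance of overlap. From the lowest to the highest fold quartile, shared MBD2 regions had median widths of 256, 252, 266 and 290 bp, against 233, 234, 242 and 253 bp for MBD2-only regions. For MBD3 these medians were 240, 228, 233 and 255 bp against 229, 220, 216 and 220.5 bp. Within shared pairs the MBD2 region was the wider one in 5414 of 7673 pairs (70.6%), and the median overlap was 221 bp.

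CTCF regions were found at most shared regions and at fewer single-antibody ones. In the shared class, 89.4% of MBD2 regions (88.7% to 90.1%) and 89.4% of MBD3 regions overlapped a DMSO CTCF region. The share was 58.8% (57.7% to 59.8%) of MBD2-only regions and 50.6% (48.6% to 52.6%) of MBD3-only regions. The order of the last 2 classes changed with cuts on the lists. With a fold of 5 or more in the lists it was reversed, at 48.5% of MBD2-only and 56.7% of MBD3-only regions, and with a −log10 q of 5 or more the shares were 62.0% and 62.6%. These cuts also shortened the CTCF list, and made regions single-antibody where the partner fell below the cut. In the fold quartiles of the full lists, given below, the MBD2-only share was the higher in each, by little in the third. All 4 lists come from the same cells, and may rest on the same inputs.

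The gap in CTCF overlap between shared and single-antibody regions was present at every level of fold. From the lowest to the highest fold quartile, CTCF overlapped 79.8%, 84.5%, 89.8% and 95.7% of shared MBD2 regions. For MBD2-only regions of the same quartiles the shares were 42.8%, 60.5%, 66.8% and 81.6%. Shared MBD3 regions gave 81.5%, 86.9%, 89.9% and 95.6%, and MBD3-only regions 39.5%, 52.8%, 66.4% and 71.4%. Where a CTCF region was present it was also weaker at single-antibody regions, with a median CTCF fold of 4.24 at MBD2-only and 4.06 at MBD3-only regions, against 4.97 and 4.96 at the shared regions of the 2 lists.

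TET1 regions were also listed more often at shared than at single-antibody regions. The ratio of shared to single-antibody shares was larger for TET1 than for CTCF. However, CTCF already overlapped 58.8% of MBD2-only and 50.6% of MBD3-only regions, which limits how large its ratio can be. These ratios therefore do not show that TET1 separated the classes better than CTCF. A DMSO TET1 region was listed at 54.7% of shared MBD2 regions and 18.3% of MBD2-only regions, and at 54.6% of shared and 15.1% of MBD3-only regions. Regions with CTCF and TET1 together made up 52.3% of shared MBD2 regions, 14.8% of MBD2-only and 12.1% of MBD3-only regions. Regions with neither were 8.20% of shared MBD2 regions, 37.7% of MBD2-only regions and 46.4% of MBD3-only regions. TET1 without CTCF was uncommon in every class, between 2.38% and 3.57%.

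**Figure D2:**
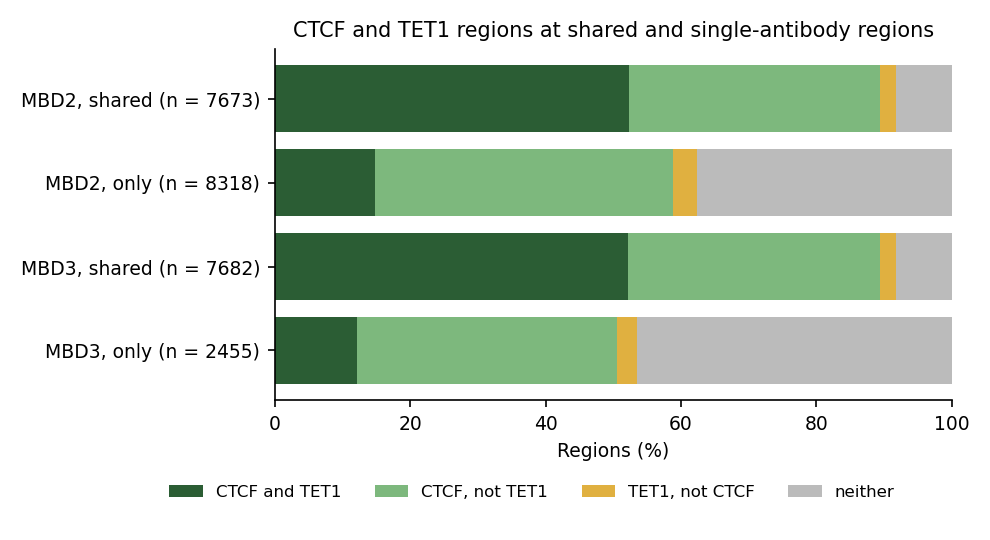
Share of regions (%, horizontal axis) in the shared and single-antibody classes of each list that overlap a DMSO CTCF region, a DMSO TET1 region, both or neither; n is the number of regions. Both shared bars have 52% with CTCF and TET1, against 14.8% of MBD2-only and 12.1% of MBD3-only regions.

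Read the other way, the proteins listed at a region went with how often MBD2 and MBD3 were both there. An MBD3 region was found at 16.7% (629 of 3761) of MBD2 regions with neither CTCF nor TET1, at 43.8% of those with CTCF but not TET1, at 38.1% of those with TET1 but not CTCF and at 76.6% (4011 of 5239) of those with both. MBD3 regions were shared with MBD2 in 35.6%, 75.2%, 71.7% and 93.1% of these classes. Median fold differed between these classes too, at 3.84 with neither and 5.28 with both for MBD2. Within the lowest fold quartile of MBD2, sharing still went from 12.1% with neither to 68.7% with both, and within the highest from 33.9% to 86.3%. Within the lowest and highest quartiles of MBD3 it went from 24.4% to 85.4% and from 58.0% to 97.1%. These quartiles mix backgrounds. In the lowest MBD2 quartile 24.9% of low-background regions and 50.5% of those with a higher recovered background were shared. The shares by CTCF and TET1 were not split by background, and its part in them was not tested.

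At shared regions the MBD2 and MBD3 summits, the bases of highest pileup, lay close together. The median distance was 11 bp (11 to 12, 7673 pairs), with quartiles of 5 and 22 bp. The summits were within 10 bp of each other in 47.8% of pairs, within 50 bp in 93.8% and within 150 bp in 97.9%, and on the same base in 190 pairs (2.48%). The signed distance, MBD3 minus MBD2 coordinate, had a median of 0 bp. Distances above 150 bp occurred in 160 pairs, up to 1386 bp.

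Summits were closer where other proteins were listed. The median distance was 11 bp in 6863 pairs with CTCF and 15 bp (14 to 17) in 810 pairs without, and it was 10 bp with CTCF and TET1 together and 17 bp with neither. Pairs with CTCF also had more fragments, a median MBD2 pileup of 43 against 33, which by itself bears on how well a summit is placed; its part in the difference was not tested. In 371 pairs with more than 1 summit in at least 1 list the median distance was 25 bp. Both proteins' summits also lay near the CTCF summit. The median distance to it was 10 bp from shared MBD2, 11 bp from shared MBD3, 13 bp from MBD2-only and 15 bp from MBD3-only regions. Single-antibody regions with CTCF thus had the longer distances in both lists.

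**Figure D3:**
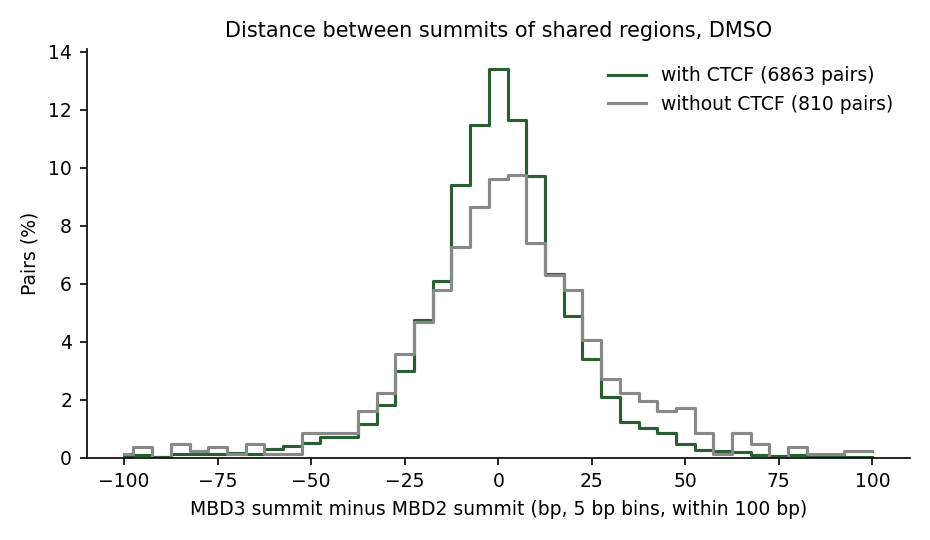
Percentage of shared pairs by MBD3 summit minus MBD2 summit in bp (5 bp bins, distances within 100 bp drawn), for 6863 pairs with and 810 pairs without a CTCF region. Both distributions centre near 0 bp, and the one with CTCF is the narrower, with a median distance of 11 bp against 15 bp.

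At shared regions, pileups of MBD3 and MBD2 were nearly equal, below what the backgrounds of the lists would give. The median ratio of MBD3 to MBD2 pileup was 0.981 (0.976 to 1.00, 7648 pairs), with quartiles of 0.855 and 1.13. The smallest backgrounds stood at 1.25, so that relative to background the MBD3 signal was 0.784 times the MBD2 signal at the median pair. In 6652 of 7648 pairs the pileup ratio was below the ratio of smallest backgrounds. With the local background subtracted from each pileup, the median ratio was 0.923. Whether this lower enrichment comes from the antibodies or from the amounts of the proteins on chromatin cannot be told apart. Only pairs listed for both proteins enter, and the median pileup ratio moved with the cut on the lists. It was 0.946 with lists of equal length and 1.02 with a fold of 5 or more in both.

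Regions with a high pileup of one protein tended to have a high pileup of the other. Spearman's correlation across 7648 pairs was 0.817 for pileup and 0.711 for fold, as a description over regions that share libraries and may share inputs. Among 6540 low-background pairs the mean squared deviation from 1 constant ratio was 0.873 times what counting noise gives. Pairs enter only when both proteins pass the listing threshold, which trims unequal pairs, so this value does not show that 1 ratio holds at all regions. Among 1108 pairs with raised background it was 3.38 times the counting noise. Within this group the median ratio was 0.974 in 843 pairs with under 100 MBD2 fragments and 1.30 (1.29 to 1.32) in 136 pairs with 200 or more, where the ratio was close to that of the smallest backgrounds. Of these 136 pairs, 45 lay off chromosomes 1 to 22 and X.

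**Figure D4:**
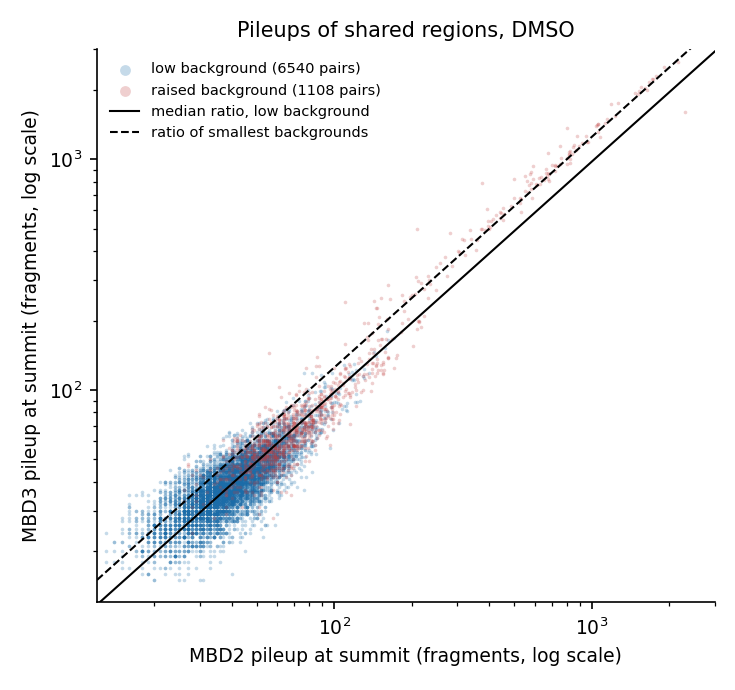
MBD3 against MBD2 pileup at the summit (fragments, both axes logarithmic) for 6540 low-background and 1108 raised-background shared pairs; the solid line is the median ratio at low background and the dashed line the ratio of smallest backgrounds, 1.25. Low-background pairs scatter about the solid line, and the pairs of highest pileup, all with raised background, run onto the dashed line.

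Few shared pairs departed far from the common ratio. A ratio more than 1.5 times above the median was seen in 265 of 7648 pairs (3.46%, MBD3 high) and one more than 1.5 times below it in 206 pairs (2.69%, MBD2 high). Pileups of this size vary by counting alone, and whether these numbers exceed what that gives was not tested. Pairs with more than 1 summit had 11.2% MBD3 high and 4.38% MBD2 high. Pairs without CTCF had 4.81% MBD3 high and 2.35% MBD2 high, near the shares of all pairs. The median ratio went from 0.959 (0.949 to 0.971) with CTCF and TET1 to 1.02 (1.00 to 1.04) with neither, both at low background. The median MBD2 pileup of these pairs was 44 fragments with CTCF and TET1 and 31 with neither. The part of pileup in the difference was not tested. The ratio also moved with the pileup read from a list. By MBD2 pileup, it went from 1.14 at 13 to 29 fragments to 0.872 at 80 to 119, and by MBD3 pileup from 0.885 to 1.03. Each reading selects regions that are high in the list it is read from, so neither trend by itself describes a change in the balance of the proteins.

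Named regions were taken by a fixed rule from the strongest of each class, with hg19 coordinates. The strongest shared pair lay at chr9:11236-11665, where MBD2 had a fold of 21.2 and 121 fragments. The MBD3 region there, chr9:11255-11630, had a fold of 17.5 and 122 fragments, and the summits were 10 bp apart. Next came chr15:102519398-102520062, with 88 MBD2 and 99 MBD3 fragments and summits 5 bp apart. At chr16:60817-61238 the fold was 19.4 for MBD2, and 159 MBD3 fragments were recovered, with summits 10 bp apart. The third pair by low background was chr1:11139-11477, with 91 MBD2 and 108 MBD3 fragments. All 4 pairs carried strong CTCF regions, with CTCF folds of 19.4 or more. Of these, 3 begin within the first 100 kb of a chromosome and the pair on chromosome 15 is the last of its chromosome in both lists, and whether their sequence has near-identical copies elsewhere was not analysed here.

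The strongest MBD2-only regions had CTCF and TET1 too. At chr1:21985581-21985847 MBD2 had a fold of 10.1 and 47 fragments, with a CTCF region of fold 11.2 and a TET1 region of fold 4.94, and the nearest MBD3 region was 63.1 kb away. At chr3:194193068-194193393 the MBD2 fold was 9.91, with 51 fragments, and the CTCF fold 11.8. At chr5:115166857-115167255 the MBD2 fold was 9.85, with 63 fragments, a CTCF fold of 6.74, and an MBD3 region 7.60 kb away. These 3 regions thus had MBD2 pileups at which most low-background regions were listed for MBD3 as well.

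The strongest MBD3-only regions had lower folds than the strongest MBD2-only ones and were more mixed in their partners. Their pileups were not all lower, with 48 fragments at the first against 47 at the first MBD2-only region. At chr1:147994269-147994498 MBD3 had a fold of 8.57 and 48 fragments, with a CTCF region of fold 7.48 and no TET1 region. At chr3:160638916-160639110 the MBD3 fold was 7.17, with 40 fragments, a TET1 region of fold 5.39 and no CTCF region. At chrX:30731207-30731455 the fold was 6.99, with 39 fragments and both CTCF and TET1 regions. The nearest MBD2 regions were 6.53, 213 and 22.5 kb away.

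The largest and smallest pileup ratios were named among low-background pairs with a −log10 q of 5 or more in both lists; weaker pairs can lie further out. At chr16:70285788-70286132 there were 59 MBD2 and 26 MBD3 fragments, a ratio of 0.441, with summits 1 bp apart. At chr19:4567593-4567937 there were 76 and 37 fragments. In the other direction, chr3:98320923-98321184 had 26 MBD2 and 52 MBD3 fragments, a ratio of 2.00. At chr1:93214708-93214905 there were 27 and 53 fragments. All 4 of these pairs overlapped a CTCF region, and all but the last a TET1 region. They were picked as the extremes of many pairs, and whether their ratios exceed counting noise was not tested.

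The regions of both proteins had a similar distribution over chromosomes. MBD2 density, per Mb up to the furthest region end, went from 2.81 regions on chromosome 21 to 10.4 on chromosome 17, and MBD3 density from 1.68 to 7.22 on the same chromosomes. Stretches without sequence were not taken out of these lengths, which bears on the order of the chromosomes. The Spearman correlation of the 2 densities over chromosomes 1 to 22 and X was 0.976 (23 chromosomes, which share libraries). Of the MBD3 regions on these chromosomes 75.9% overlapped an MBD2 region. The 2 densities thus largely count the same places, so a high correlation is largely built in. The number of MBD2 regions per MBD3 region ranged from 1.37 on chromosome 13 to 1.77 on chromosome 3, around 1.58 over all. The median pileup ratio stayed between 0.960 on chromosome 12 and 1.01 on chromosome 22.

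The shares also differed between chromosomes. Among MBD2 regions it went from 38.8% on chromosome 18 to 55.5% on chromosome 17, around 47.9% over these chromosomes. Among MBD3 regions it went from 65.2% on chromosome 18 to 83.6% on chromosome 12, around 75.9%. The interval of a chromosome left out the overall share on 4 chromosomes for MBD2 (3, 9, 17 and 18) and on 6 for MBD3 (1, 9, 12, 13, 17 and 18). The MBD2 share went with MBD2 density, by the same uncorrected lengths, with a Spearman correlation of 0.710 over the 23 chromosomes. Raised local background also differed between chromosomes, from 1.33% of MBD2 regions on chromosome 20 to 22.9% on chromosome 13, and its part in the shares was not tested.

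**Figure D5:**
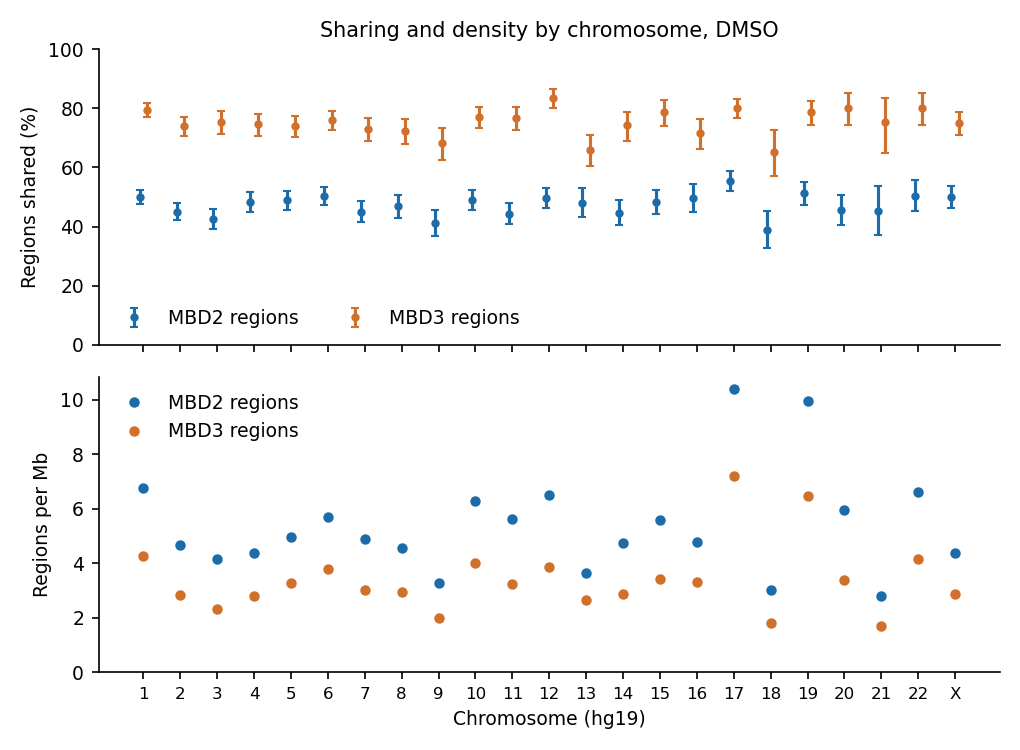
Share of regions that are shared (%, upper panel, bars are 95% Wilson intervals) and regions per Mb (lower panel) on chromosomes 1 to 22 and X, for MBD2 and MBD3. The share is lowest on chromosome 18 for both, at 38.8% and 65.2%, and density is highest on chromosome 17 for both, at 10.4 and 7.22 per Mb.

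Off chromosomes 1 to 22 and X lay 114 MBD2 regions (0.713%) and 113 MBD3 regions (1.11%), 71 of each shared. They made up 0.517% of MBD2-only and 1.71% of MBD3-only regions. Among regions with low background the MBD3-only share was 0.606%. The contig gl000199 of chromosome 9, not placed in its sequence, alone held 36 MBD2 and 52 MBD3 regions, with a median fold of 1.68 and 1.82, and 36 and 50 of these had a raised background. Over all sequences, raised background was found at 13.2% of shared and 7.44% of MBD2-only regions in the MBD2 list, and at 13.5% of shared and 8.84% of MBD3-only regions in the MBD3 list.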

How the data were processed

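Per the submitters' processing notes, the authors worked on the build hg19 with MACS2 2.1.2, Bowtie2 2.3.4, FastQC 0.11.7, deepTools 3.5.0, SAMtools 1.9 and bedtools 2.25.0. For the peak caller's settings, nothing was given in the sources used here. The deposited lists give for each peak a fold enrichment (a linear ratio), the −log10 of its p-value and of its q-value, and a summit offset; these are the authors' values and were used only within a list. Peaks with the same start and end were 1 region, with the values of the peak of largest −log10 p. An MBD2 region was paired with the overlapping MBD3 region of nearest summit. To recover pileups, the fold was taken as (pileup + 1) / (background + 1) and the −log10 p as that of a Poisson count above the pileup; whole pileups had to fit within 0.02% or 0.001, and regions above a −log10 p of 150 were left unsolved. Raised background means above 3 times the smallest of the list.

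Groups came from the treatment and antibody in the labels. No column of per-sample values was given, so no test was made. Members, lists and alternatives were chosen with earlier results of these data known; the ratio net of background was added after seeing the data. Regions named in the text reach a −log10 q of 5 and lie on chromosomes 1 to 22 other than 8, or on X. These were the 3 shared pairs of highest smaller fold and the 3 MBD2-only and 3 MBD3-only regions of highest fold, with and without a limit on background, and the 2 largest and 2 smallest pileup ratios at low background. Alternatives were lists of equal length, a minimum of 5 for −log10 q or for fold, sharing by summits within 150 bp or by 50% of the shorter region, leaving out all sequences but chromosomes 1 to 22 and X, low background, and pairs read from the MBD3 list. The scripts were tested on simulated data. Python 3.11.15, numpy 2.4.6, pandas 2.3.3, SciPy 1.17.1 and matplotlib 3.10.9 were used. Signal tracks and library depths were not used here.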

Additional observations from a re-analysis of the deposited data

How the results depend on the processing

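Of 104 values recomputed under the alternatives, 55 stayed within the interval of the reported value and 49 fell outside; the cause was not tested unless stated. With low background alone, shares of MBD2 and MBD3 regions shared were 45.6% and 73.9%, CTCF overlap was 88.0% and 57.0% (shared and MBD2-only) and 87.9% and 47.9% (shared and MBD3-only), median widths of shared regions were 269 bp (MBD2) and 237 bp (MBD3), and the share off chromosomes 1 to 22 and X was 0.245% of shared MBD2 and 0.606% of MBD3-only regions. With a fold of 5 or more, 25.9% of MBD2 and 84.8% of MBD3 regions were shared, CTCF overlapped 48.5% of MBD2-only and 56.7% of MBD3-only regions, summits lay 8 bp apart, widths were 288 and 267 bp (MBD2 shared and alone) and 259 and 235 bp (MBD3), the pileup ratio was 1.02, and shares off those chromosomes were 0.389% and 0.722%. With a −log10 q of 5 or more, 81.8% of MBD3 regions were shared, CTCF overlap was 90.5% and 62.0% for MBD2 and 90.5% and 62.6% for MBD3, the distance was 10 bp, MBD2-only width 242 bp and the MBD3-only share off those chromosomes 2.34%. These 2 alternatives, like that of low background, filtered the CTCF list too. With lists of equal length, 60.1% of each was shared, CTCF overlap was 93.1% and 73.1% for MBD2 and 93.0% and 60.3% for MBD3, the distance was 10 bp, widths were 277 bp (MBD2 shared), 245 bp (MBD2-only) and 228 bp (MBD3-only), and the ratio was 0.946. With summits within 150 bp, 47.0% and 74.1% were shared, CTCF overlap was 88.6% and 57.4% for MBD2 and 88.5% and 48.3% for MBD3, and MBD3-only width was 226 bp. Net of background the ratio was 0.923. No paired analysis was possible because each list pools replicates 1 to 3 and gives 1 value per group; for the same reason leaving out a replicate was not run. The lowest listed pileup was 13 fragments for MBD2 and 15 for MBD3, and what depth, background or caller settings add to that was not tested; a region below its list's threshold was not detectable, not shown to be absent.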

Other observations

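Cells under BPK25 or IAA, the other treatments of the series, gave short MBD2 and MBD3 lists, whose regions fell mostly at DMSO regions of both proteins or at none. Of 510 MBD2 regions under BPK25, 212 (41.6%) lay where MBD2 and MBD3 were both listed in DMSO, 25 at MBD2-only regions, 27 at MBD3-only regions and 246 at neither. Of 138 MBD2 regions under IAA, 99 (71.7%) lay at regions of both, 0 at MBD2-only regions, 12 at MBD3-only regions and 27 at neither. MBD3 gave 151 of 374 (40.4%) at regions of both under BPK25 and 72 of 95 (75.8%) under IAA. From the DMSO side, a BPK25 MBD2 region was found at 208 shared MBD2 regions (2.71%, interval 2.37% to 3.10%) and at 24 MBD2-only regions (0.289%). For MBD3 under BPK25 the counts were 151 shared (1.97%) and 22 MBD3-only regions (0.896%). Shared regions also had the higher pileups, and what the difference owes to that was not tested.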
